A study of Mus musculus with 4 samples.

Results

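The 5 genes of the mouse lysyl oxidase family, Lox, Loxl1, Loxl2, Loxl3 and Loxl4, were followed in RNA-seq profiles of lung fibroblasts at 4 ages. They were taken by symbol from an expression table of 23444 gene symbols, where all 5 were found, each as a single entry. The cells carried the surface receptor Pdgfra and came from the lungs of wild-type C57BL6 mice at 2 fetal ages, embryonic days 16.5 (E16.5) and 18.5 (E18.5), and at 2 ages after birth, days 7 (P7) and 28 (P28). Embryos and pups came from timed pregnancies, the labels name no mutant allele or agent for any group, and they do not say how many animals stand behind a library. There was 1 library per age, so no spread between animals can be given, no test was run, and each difference below compares 2 libraries, not 2 populations of mice. Values are FPKM, fragments per kilobase of transcript scaled to the number of mapped fragments, which are per length and so can be set side by side between genes.

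Lysyl oxidases are secreted copper enzymes that oxidise lysine side chains in collagen and elastin, and the aldehydes formed join neighbouring chains into covalent crosslinks. Lox and Loxl1 carry a propeptide that proteases of the bone morphogenetic protein 1 type remove, and both act on fibrillar collagen and elastin, with Loxl1 tied through fibulin-5 to elastic fibres in mice. Loxl2, Loxl3 and Loxl4 carry scavenger receptor cysteine-rich domains in place of the propeptide, and Loxl2 is known to crosslink collagen IV of basement membranes. In the developing lung these enzymes act while elastic fibres are laid down in the tips of the alveolar septa.

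In the GENCODE M21 annotation of GRCm38, the longest coding model of Lox has 7 exons and 1233 coding bases. That of Loxl1 (chr9:58287738-58313186, minus strand) has 7 exons and 1821 coding bases. Loxl2 (chr14:69609068-69695834, plus strand), Loxl3 (chr6:83034173-83052562, plus strand) and Loxl4 (chr19:42593982-42612813, minus strand) have 14, 14 and 15 exons and 2328, 2262 and 2274 coding bases. What the members share is the catalytic end of the protein, where alternate histidines hold the copper ion. The coding bases of that stretch are printed for 4 members to show how alike the enzymes are at this point, from the GENCODE transcripts on the coding strand, 5′ to 3′, with histidine codons in capitals. Each run is spliced, so the span that follows the name also holds an intron.
Loxl1, chr9:58293705-58294378, minus strand: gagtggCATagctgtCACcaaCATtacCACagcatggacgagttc
Loxl2, chr14:69682319-69689052, plus strand: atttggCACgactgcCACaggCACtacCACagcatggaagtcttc
Loxl3, chr6:83049998-83050140, plus strand: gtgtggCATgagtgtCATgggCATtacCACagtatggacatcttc
Loxl4, chr19:42598792-42599896, minus strand: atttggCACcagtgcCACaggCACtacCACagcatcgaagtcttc

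Each run was cut at a fixed distance around the alternate histidines, so those codons match in place by design. The first of the 4 histidine codons lies outside that motif, and it too fell at the same place in all 4 runs. Of 45 bases, 26 were identical in the runs, with bases of the codons matched by design among them. In all 5 genes, Lox included, the junction between exons lay after base 20 of this stretch. Over the last 600 coding bases Lox was 73.0% identical to Loxl1 and 52.6% to 53.7% identical to the other members, while Loxl2, Loxl3 and Loxl4 were 68.0% to 70.9% identical to each other. By sequence the family thus divides into a pair and a group of 3. The library kit named in the labels does not mark strand, and 13.1% of the exon bases of the Loxl3 model lie over exons of Htra2 on the other strand, so reads there cannot be told apart. Htra2 itself was listed at 4.87 FPKM on E16.5, 1.26 on E18.5, 5.57 on P7 and 4.39 on P28.

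The libraries differed in scale and in what else they held. Among 7930 symbols that reached 1 FPKM in every library, 94.3% lay below the mean of the other 3 libraries on E18.5, so values are given as deposited and after median-ratio scaling, which divides the libraries by 1.15 (E16.5), 0.581 (E18.5), 1.38 (P7) and 1.08 (P28). Depth is not stated. It was estimated from the most common ratio to E16.5 among genes listed below 0.1 FPKM in both libraries. That put it at 0.717 (E18.5), 1.05 (P7) and 0.946 (P28) of that of E16.5. The estimate assumes that such genes mostly hold the same few reads in both libraries. All 8 fibroblast markers, Pdgfra and collagen I among them, were above 1 FPKM in every library. Their summed FPKM was 2164 on E16.5, 1686 on E18.5, 3896 on P7 and 7628 on P28, with Mfap4 at 680 on E16.5 and 4400 on P28. At P28 against E16.5, 6 of the 8 were called higher by 2-fold or more and 0 lower, or 7 and 0 after scaling. Of all expressed genes 10.1% were called higher, or 10.4% after scaling. The part of this shift in the differences below was not tested. Summed FPKM of 10 endothelial markers was 28.1 on E16.5, 32.7 on E18.5, 899 on P7 and 229.6 on P28, and 10 epithelial markers made up 14.1% of all FPKM at P28 against 0.0178% to 0.140% at the other ages. Erythroid markers, 6 genes, summed to 487 FPKM on E18.5 and to 1.65 to 21.3 elsewhere. Leukocyte markers, 10 genes, summed to 5066 FPKM on P28, of which Lyz2, also made by alveolar type 2 cells, gave 5062. In a sorted bulk sample, fewer cells of a type and less RNA per cell cannot be told apart.

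Lox (chromosome 18, minus strand), the founding member, was the most abundant of the family in both fetal libraries, at 93.7 FPKM on E16.5 and 78.0 on E18.5, against 15.7 at P7 and 34.6 at P28. Both fetal values were above both postnatal ones, and P7 was the lowest. After scaling the values were 81.7, 134, 11.4 and 32.0 in order of age, which places E18.5 above E16.5. In rank among the 12561 symbols that reached 1 FPKM in some library (called expressed genes below), which no scaling changes, Lox stood at percentile 97.8 on E16.5, 98.6 on E18.5, 78.8 on P7 and 93.2 on P28. Immediate early genes, which tissue dissociation can raise, lay in a like order as a sum. Over 10 genes it was 1279 FPKM on E16.5, 1234 on E18.5, 578 on P7 and 1201 on P28. At P7 against E16.5, 6 of the 10 were called lower and 0 higher, under both scales. Zfp36 was at 324, 564, 61.2 and 189 FPKM in order of age. Dusp1, Jun and Fosb were instead highest at P28 as deposited, with Dusp1 at 509 FPKM. As deposited Dusp1 and Jun were also higher at P7 than in either fetal library. Summed leukocyte markers were at 1532, 78.7, 20.2 and 5066 FPKM in order of age, with 5062 of the P28 sum from Lyz2. The part of either in the Lox values was not tested.

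Loxl1, the elastic fibre enzyme, was low in the fetal libraries, at 2.51 FPKM on E16.5 and 1.41 on E18.5, and stood at 15.9 at P7 and 36.1 at P28. After scaling it was at 2.19, 2.43, 11.5 and 33.5 in order of age, so the 2 fetal libraries change places while P7 and P28 keep theirs. Its percentile was 34.1, 40.7, 79.2 and 93.5. Among genes that reached 5 FPKM in some library, 4.94% had a wider range across the ages than Loxl1 as deposited and 6.24% after scaling. Mesothelial markers lay higher at each later age, at a summed 0.385, 6.002, 47.8 and 134 FPKM over 5 genes as deposited. Loxl1 lay higher at each later age after scaling only. The part of mesothelial cells in the Loxl1 values was not tested.

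Loxl2, the collagen IV crosslinker, had its high value at P7. It was at 21.3 FPKM on E16.5, 23.1 on E18.5, 95.9 on P7 and 19.6 on P28, so the P7 library stood apart and the other 3 lay close together. After scaling the values were 18.6, 39.7, 69.6 and 18.2, with E18.5 between P7 and the other libraries. The percentile of Loxl2 was 88.5 on E16.5, 95.1 on E18.5, 97.7 on P7 and 87.0 on P28. Of genes whose highest and lowest libraries were 2-fold or more apart, 46.0% were highest at P7 as deposited and 20.8% after scaling.

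Loxl3 was also highest at P7 but at a lower level, at 3.43 FPKM on E16.5, 2.86 on E18.5, 10.03 on P7 and 3.67 on P28, or 2.99, 4.92, 7.28 and 3.4 after scaling. The P7 library stood apart as deposited, and E18.5 was the lowest as deposited but the second highest after scaling. The ratio of Loxl2 to Loxl3 within a library, 6.21 on E16.5, 8.08 on E18.5, 9.56 on P7 and 5.34 on P28, ranged less than either gene did. Loxl4 was the least abundant member in every library, at 0.397 FPKM on E16.5, 0.276 on E18.5, 0.715 on P7 and 1.86 on P28. It passed 1 FPKM only at P28, where its percentile was 25.8, and it stood at percentile 7.05 to 10.6 before that. With 1 library per age, no neighbours in these orders can be told apart by their spread.

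**Figure D1:**
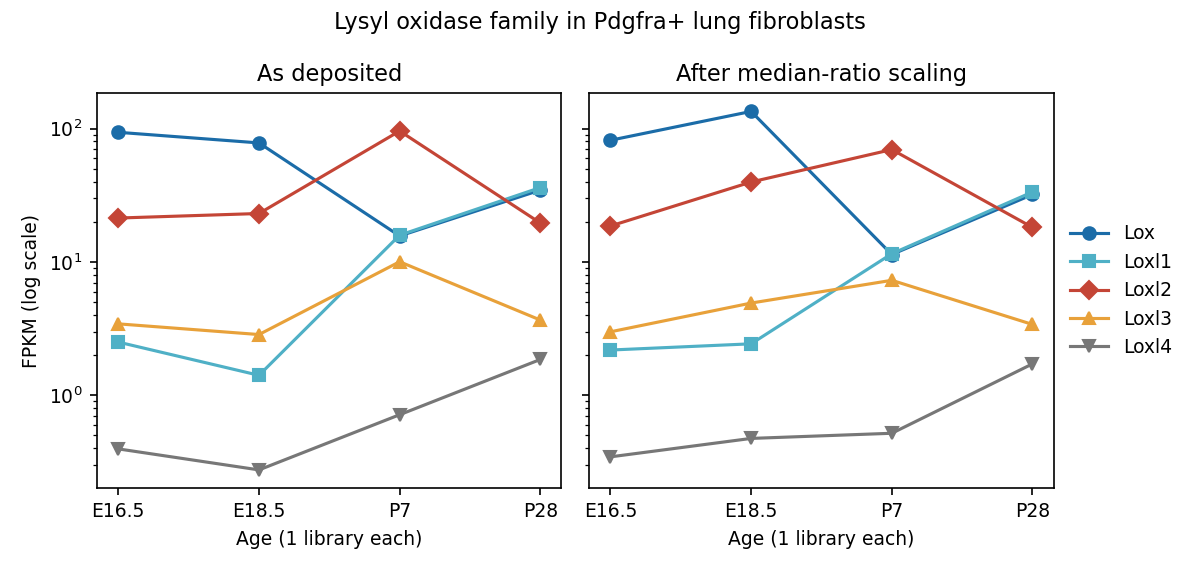
FPKM of the 5 members (vertical axis, log scale) at 4 ages, 1 library per point, as deposited on the left and after median-ratio scaling on the right. Lox lies above Loxl2 in the fetal libraries, Loxl2 lies above all others at P7 with 95.9 FPKM as deposited, and Loxl1 meets Lox at P7 and P28.

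The make-up of the family within a library does not depend on how libraries are scaled to each other. Lox made up 77.2% of the summed FPKM of the 5 genes on E16.5, 73.9% on E18.5, 11.3% on P7 and 36.1% on P28. Loxl1 made up 2.06%, 1.34%, 11.5% and 37.7% in the same order, and Loxl2 17.6%, 21.8%, 69.4% and 20.4%. Loxl2 thus held the largest part at P7, and Lox and Loxl1 held nearly equal parts at both postnatal ages. The ratio of Lox to Loxl1 was 37.4 on E16.5, 55.3 on E18.5, 0.987 on P7 and 0.958 on P28. Together Lox and Loxl1 made up 79.3% on E16.5, 75.2% on E18.5, 22.8% on P7 and 73.8% on P28, so the part of this pair at P28 was near that of the fetal libraries while its composition was not. Loxl3 held 2.83%, 2.70%, 7.26% and 3.83%, and Loxl4 held 0.261% to 1.94%.

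**Figure D2:**
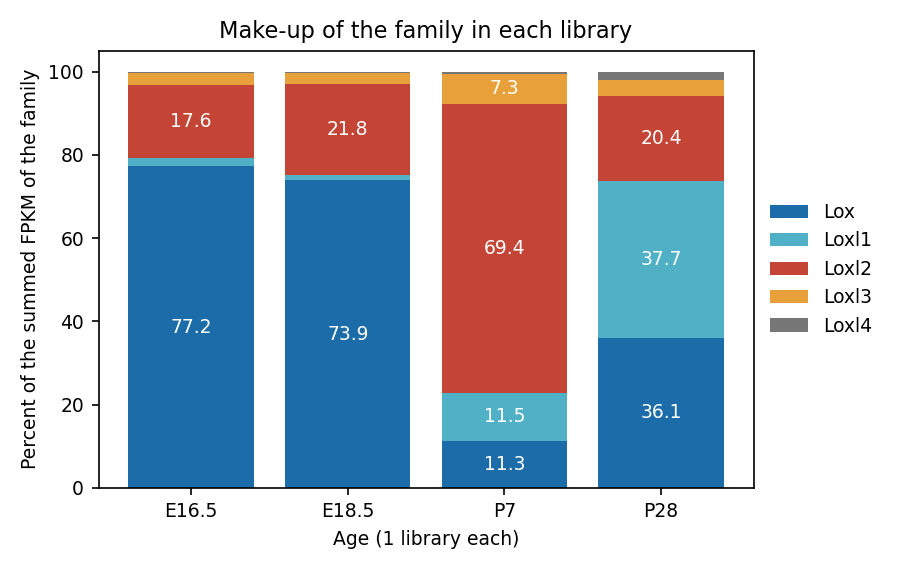
Percent of the summed FPKM of the 5 members (vertical axis) held by each member at 4 ages, 1 library per bar. Lox holds 77.2% at E16.5 and 73.9% at E18.5, Loxl2 holds 69.4% at P7, and Lox and Loxl1 hold 36.1% and 37.7% at P28.

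The sum of the family moved less than its members. It was 121 FPKM on E16.5, 106 on E18.5, 138 on P7 and 95.8 on P28 as deposited, and 106, 182, 100.3 and 88.8 after scaling. The highest sum was therefore at P7 as deposited and at E18.5 after scaling.

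A member was called higher or lower when log2(FPKM + 1) differed by at least 1, which is 2-fold, and the larger of the 2 values was 5 FPKM or above. This scale understates the difference of genes near 1 FPKM. E18.5 against E16.5 covers the last days before birth, and no member was called in either direction as deposited, where 1.11% of the 12561 expressed genes were called higher and 22.6% lower. The log2 differences ran from -0.54 (Loxl1) to 0.11 (Loxl2), while the median of all expressed genes was -0.71. After scaling Loxl2 was called higher at 1.06, where 4.49% of genes were called higher and 5.84% lower. Lox, Loxl1, Loxl3 and Loxl4 went from negative differences as deposited to positive ones after scaling, at 0.71, 0.11, 0.57 and 0.13, so their direction between these fetal libraries rests on the scaling.

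P7 against E18.5 spans birth and the start of alveolar formation, and the members differed in direction. Lox was 4.98-fold lower at P7 (log2 difference -2.25), Loxl1 was 11.2-fold higher (2.81), Loxl2 4.16-fold higher (2.01) and Loxl3 3.51-fold higher (1.52), while Loxl4 was not called (0.43). As deposited 3 of 5 members were thus higher and 1 lower, beside 33.3% and 1.52% of all expressed genes, so the count of higher members must be read against a shift that 33.3% of genes share. After scaling 1 member, Loxl1 (1.87), was higher beside 7.2% of genes and 1, Lox (-3.45), was lower beside 5.88%, while Loxl2 (0.79) and Loxl3 (0.49) were not called. Only 0.677% of expressed genes had a lower difference than Lox as deposited and 0.549% after scaling.

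A comparison of P7 with E16.5 leaves out the library of E18.5. Lox was 5.98-fold lower at P7 (log2 difference -2.51), and Loxl1, Loxl2 and Loxl3 were 6.33-fold, 4.49-fold and 2.92-fold higher (2.27, 2.12 and 1.32). As deposited 3 of 5 members were called higher beside 8.84% of genes and 1 lower beside 3.75%, and after scaling the counts were again 3 and 1 beside 6.02% and 4.72%. The scaled differences were -2.74 for Lox, 1.98 for Loxl1, 1.85 for Loxl2 and 1.05 for Loxl3. Loxl3 was not called with upper-quartile scaling (0.98) or a pseudocount of 5 (0.83). The comparison shares the P7 library with the one before it.

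P28 against P7 covers the end of alveolar formation, and Lox and Loxl1 stood opposite to Loxl2 and Loxl3. Lox was 2.21-fold and Loxl1 2.27-fold higher at P28 (log2 differences 1.09 and 1.14), while Loxl2 was 4.90-fold and Loxl3 2.74-fold lower (-2.23 and -1.24). That made 2 members higher beside 5.95% of genes and 2 lower beside 9.57%. After scaling Lox (1.42) and Loxl1 (1.46) were again higher, beside 7.42% of genes, and Loxl2 (-1.88) was lower, beside 5.21%, whereas Loxl3 at -0.91 was not called. With the libraries brought to equal sums, Lox and Loxl1 came to 0.92 and 0.96 and were not called; the P28 sum holds 8.74% from the club cell gene Scgb1a1 alone, and both were called higher again when marker genes of other cell types were left out of the sums. With a pseudocount of 5 neither was called, at 0.94 and 0.98. Loxl4 was 2.60-fold higher at P28 in FPKM, but at 0.74 on the log2(FPKM + 1) scale it was not called.

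P28 against E16.5 sets the ends of the course side by side. Loxl1 was 14.4-fold higher at P28 (log2 difference 3.4) and Lox 2.71-fold lower (-1.41), while Loxl2 (-0.12) and Loxl3 (0.07) lay close to their E16.5 values. As deposited 1 member was called higher beside 10.1% of genes and 1 lower beside 9.51%, and after scaling the counts were 1 and 1 beside 10.4% and 7.94%. Loxl3 changed its sign, to -0.15, with libraries at equal sums. Of expressed genes, 98.4% had a smaller difference than Loxl1 as deposited.

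**Figure D3:**
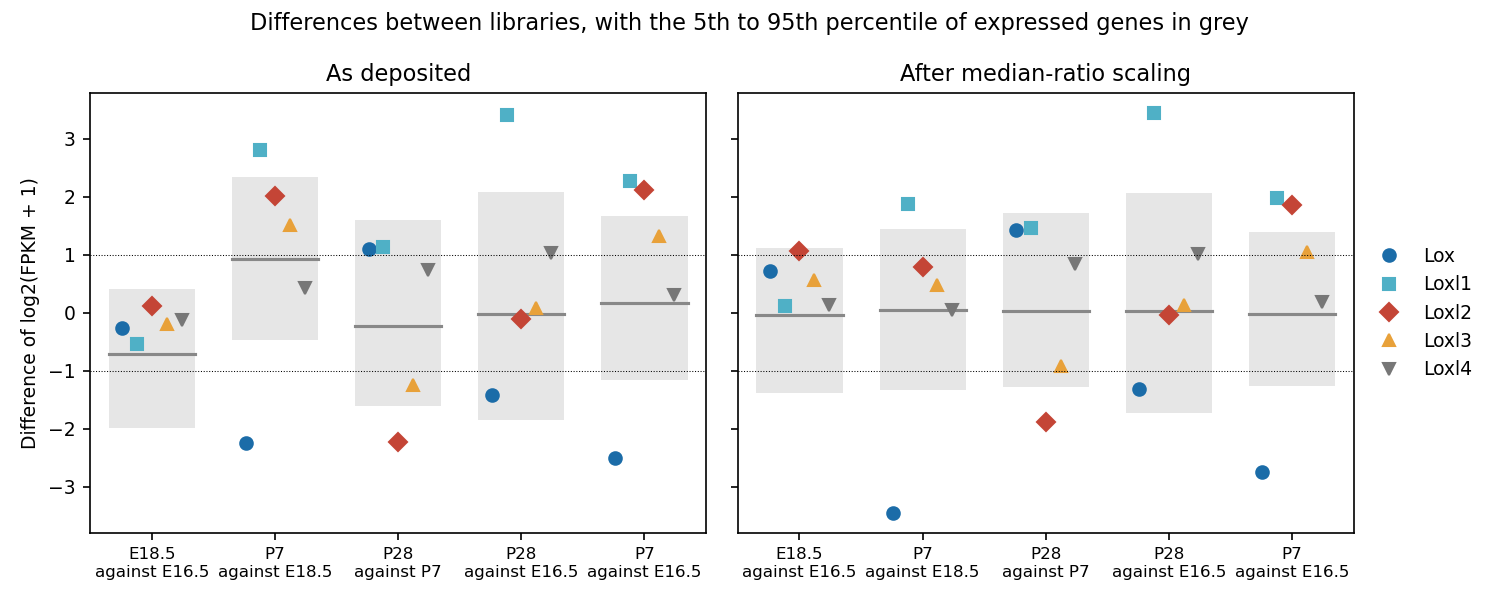
Difference of log2(FPKM + 1) between libraries (vertical axis) for the 5 members in 5 comparisons, as deposited on the left and after median-ratio scaling on the right; grey boxes span the 5th to 95th percentile of 12561 expressed genes, grey lines mark their median and dotted lines mark 2-fold. Lox lies below the box in P7 against E18.5 and P7 against E16.5, and Loxl1 lies above it in both and in P28 against E16.5. Loxl2 lies above the box in P7 against E16.5 and below it in P28 against P7.

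The level of elastin did not have the order of Lox. Elastin (Eln) was at 69.9 FPKM on E16.5, 472 on E18.5, 501 on P7 and 364 on P28. Its transcript was higher in the 3 later libraries, also after scaling, at 61.0, 813, 364 and 337 in order of age. Scaled Eln was highest at E18.5, as scaled Lox was, and was called lower at P7 against E18.5 (-1.16). The lowest library of scaled Eln was E16.5, whereas that of scaled Lox was P7. Per FPKM of Eln in the same library, a ratio that scaling does not touch, Lox stood at 1.34 on E16.5, 0.165 on E18.5, 0.0312 on P7 and 0.0951 on P28. Loxl1 stood at 0.0358, 0.00299, 0.0317 and 0.0993 per FPKM of Eln. Lox was thus above its substrate at E16.5 alone, and Loxl1 came to the level of Lox relative to elastin at P7 and P28.

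Against the collagen I chain Col1a1, at 272, 151, 418 and 555 FPKM in order of age, Lox stood at 0.344, 0.516, 0.0375 and 0.0623. The ratio was higher in both fetal libraries than in both postnatal ones. Loxl2 stood at 0.0784, 0.153, 0.229 and 0.0353 per FPKM of Col1a1, highest at P7. Against the basement membrane collagen Col4a1, at 42.7, 76.5, 199 and 66.1 FPKM, Loxl2 kept a narrower range of 0.4997 on E16.5, 0.302 on E18.5, 0.483 on P7 and 0.296 on P28. Per FPKM of Pdgfra, the receptor the cells were sorted for, Loxl2 was at 0.240 and 0.241 in the fetal libraries, 0.849 at P7 and 0.104 at P28.

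**Figure D4:**
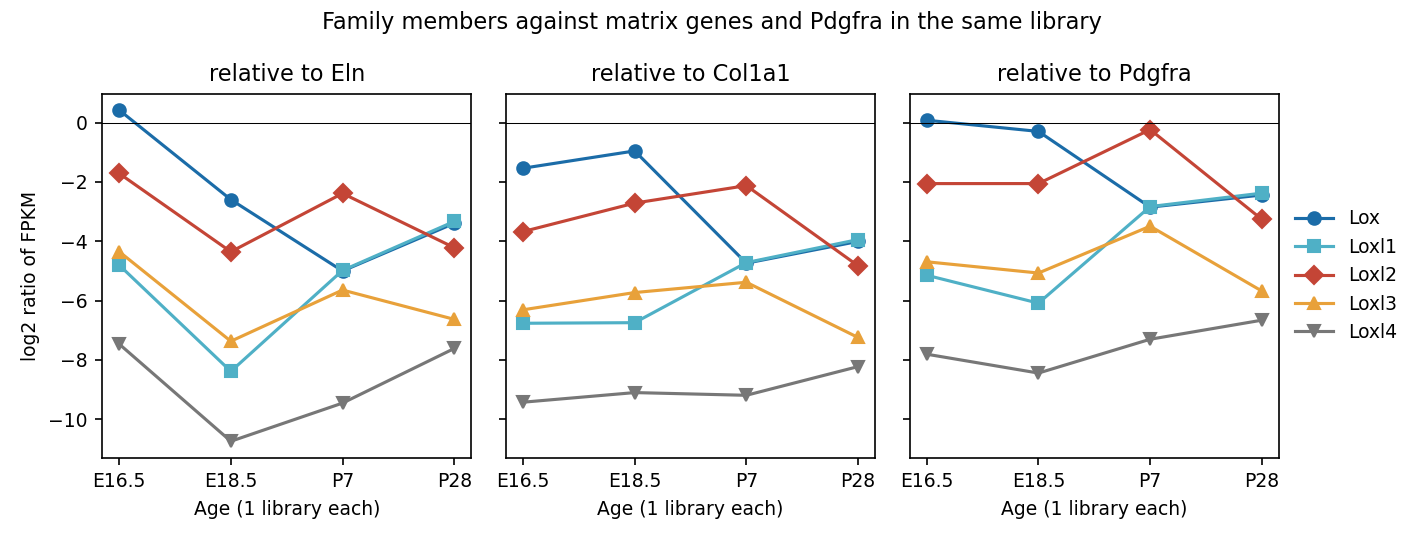
log2 ratio of the FPKM of each member to that of Eln, Col1a1 or Pdgfra in the same library (vertical axis) at 4 ages, 1 library per point. The log2 ratio of Lox to Eln is above 0 at E16.5 only, and the Lox and Loxl1 lines meet at P7 and P28 in each panel.

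The list of crosslinked substrates, elastin with 11 collagen chains, had 11 of 12 genes at 1 FPKM or more in some library. Against E16.5, 5 of them were called higher at P7 and 0 lower, or 3 and 0 after scaling, with a median log2 difference of 0.97 (0.71 after scaling) beside 0.16 (-0.03) for all expressed genes, of which 8.84% (6.02%) were called higher. The 3 called under both scales were Eln, Col4a1 and Col4a2, and Col2a1 and Col5a1 were called as deposited only. Col3a1, a fibrillar collagen chain, had the highest value of the list in any library, at 381 FPKM on E16.5, 187 on E18.5, 748 on P7 and 1034 on P28, although Eln was above it on E18.5. Col4a2, which pairs with Col4a1, was at 29.8, 42.1, 216 and 85.0, highest at P7 like Loxl2.

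Of 7 matrix proteins that bind or place the enzymes, 3 were called higher and 1 lower at P7 against E16.5 under both scales, beside 8.84% and 3.75% of all expressed genes (6.02% and 4.72% after scaling). The median log2 difference of the 7 was 0.71 (0.45 after scaling) beside 0.16 (-0.03) for all. The higher ones were Fbln5, Postn and Ltbp4, and the lower one was thrombospondin 1 (Thbs1), at 170.0 FPKM on E16.5 and 68.9 on P7. Fibulin-5 (Fbln5), which binds Loxl1, was at 1.98 FPKM on E16.5, 1.75 on E18.5, 16.3 on P7 and 10.2 on P28, low in both fetal libraries as Loxl1 was. Periostin (Postn), a matricellular protein, was at 33.7, 59.6, 205 and 10.5, and the latent TGF-beta binding protein Ltbp4 at 25.5, 43.9, 75.4 and 190.2. Fibronectin (Fn1) was at 108, 75.4, 178 and 356.5, the highest of the list on P28, whereas Thbs1 was above it in both fetal libraries and Postn on P7.

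The list of propeptide proteases and enhancers holds genes that act on procollagen as well as those that act on Lox and Loxl1. The procollagen enhancers Pcolce and Pcolce2 and the procollagen protease Adamts2 were higher at the end of the course. Of 6 genes at 1 FPKM or more, these 3 were called higher and 0 lower at P28 against E16.5 under both scales, with a median log2 difference of 1.84 beside -0.03 for all expressed genes (1.85 and 0.03 after scaling), of which 10.1% were called higher as deposited and 10.4% after scaling. The enhancer Pcolce2 was at 2.0 FPKM on E16.5, 1.196 on E18.5, 15.3 on P7 and 280.0 on P28, and Pcolce at 23.5, 10.6, 37.3 and 169.9. Adamts14, a relative of Adamts2, was instead highest at E18.5, at 2.67, 11.3, 2.69 and 0.692. Bmp1, whose type of protease removes the propeptide of Lox and Loxl1, was at 8.64 FPKM on E16.5, 5.08 on E18.5, 20.5 on P7 and 11.3 on P28. It was not called at P28 against E16.5 (0.35, or 0.43 after scaling). At P7 against E16.5 Bmp1 was called higher as deposited (1.15) but not after scaling (0.89). Tll2 was listed at 0 in 3 libraries.

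Which genes of copper supply were called depended on the ages compared. Of 8 genes, 0 were called in either direction at P7 against E16.5 under both scales, where 8.84% of all expressed genes were higher and 3.75% lower as deposited, with a median of 0.06 (-0.05 after scaling) beside 0.16 (-0.03) for all. At P28 against P7, 2 genes, Atp7b and Cox17, were higher and 0 lower under both scales, beside 5.95% of genes higher as deposited and 7.42% after scaling. At P7 against E18.5, 2 genes, Atox1 and Slc31a2, were higher and 0 lower as deposited, beside 33.3% of genes higher, and after scaling 0 were higher and 1, Cox17, lower, beside 5.88% lower. At P28 against E16.5, 1 was higher and 1 lower, beside 10.1% and 9.51% of genes, or 1 and 0 after scaling, beside 10.4% and 7.94%. The mitochondrial copper chaperone Cox17 had the highest value of the list on P28 but not on P7, at 18.7, 15.9, 12.8 and 30.1 FPKM in order of age, and Atox1, which passes copper to the secretory pathway, was at 15.7, 5.53, 15.1 and 12.6. The copper transporter Atp7b was at 0.0326 to 0.125 FPKM before P28 and at 6.83 at P28. Atp7a, also a copper transporter, was at 10.6, 6.73, 14.1 and 11.4 in order of age and was not called in any comparison. The superoxide dismutase chaperone Ccs was at 2.87, 1.29, 3.35 and 5.03.

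Lysyl hydroxylation, which prepares the lysines that the enzymes oxidise in collagen, had 5 of 6 listed genes in the table. At P7 against E16.5, 1 was called higher as deposited and 0 after scaling, with 0 lower under both, beside 8.84% of all expressed genes higher as deposited and 6.02% after scaling. The median log2 difference of the 5 was 0.66 (0.41 after scaling) beside 0.16 (-0.03) for all. The chaperone Fkbp10 was at 15.7 FPKM on E16.5, 6.87 on E18.5, 35.6 on P7 and 18.03 on P28. The lysyl hydroxylase Plod1 was at 11.3, 6.01, 18.5 and 14.4, and the collagen galactosyltransferase Colgalt2 at 0.233, 0.893, 1.40 and 3.04.

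For each member the 4 genes with the most similar course were taken from 7399 candidates, by the largest gap in scaled, centred log2(FPKM + 1) at any of the 4 libraries. Nearest to Lox were Lst1 (gap 0.20, listed at 0 at P7), the glucose transporter Slc2a1 (0.22), the heat shock gene Hspa1a (0.30) and Fam105a (0.35), and 7 genes in all lay within 0.5. Slc2a1 was at 22.7 FPKM on E16.5, 22.8 on E18.5, 2.85 on P7 and 7.06 on P28. Hspa1a has a near-identical copy in the genome, so its reads are uncertain. Nearest to Loxl1 were the carboxypeptidase Cpm (0.13), at 3.57, 2.45, 23.7 and 51.2 FPKM, the laminin receptor Bcam (0.23), the pseudogene Oaz1-ps (0.27), whose reads are uncertain for the same reason, and Slc22a23 (0.30), with 30 genes within 0.5.

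Nearest to Loxl2 were the mechanically gated channel Piezo2 (0.05), at 3.91, 4.43, 19.6 and 3.39 FPKM, the transcription factor Ets1 (0.19), the receptor Pdgfrb (0.23) and Plekhg1 (0.23), with 43 genes within 0.5. On this scale courses like those of Loxl3 and Loxl4 were common, with 680 and 1087 genes within 0.5. They were led by Rcor3, Uaca, Rasal2 and Sh3pxd2a for Loxl3 and by Tbc1d25, Lrpap1, Tmem41a and Taz for Loxl4. The added 1 narrows the course of Loxl4, which is low in FPKM. Scaled Loxl4 was at 0.346 FPKM on E16.5 and 1.72 on P28. Its 4 neighbours differed less in fold, as with Tbc1d25 at 2.72 and 6.39 and Lrpap1 at 8.66 and 18.6. The count for Loxl4 thus does not show genes that share its fold changes. The ranks of nearest genes rest on 4 libraries. Of the 20 genes named, 9 were again among the nearest 4 with values as deposited and 7 with a pseudocount of 0.1.

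**Figure D5:**
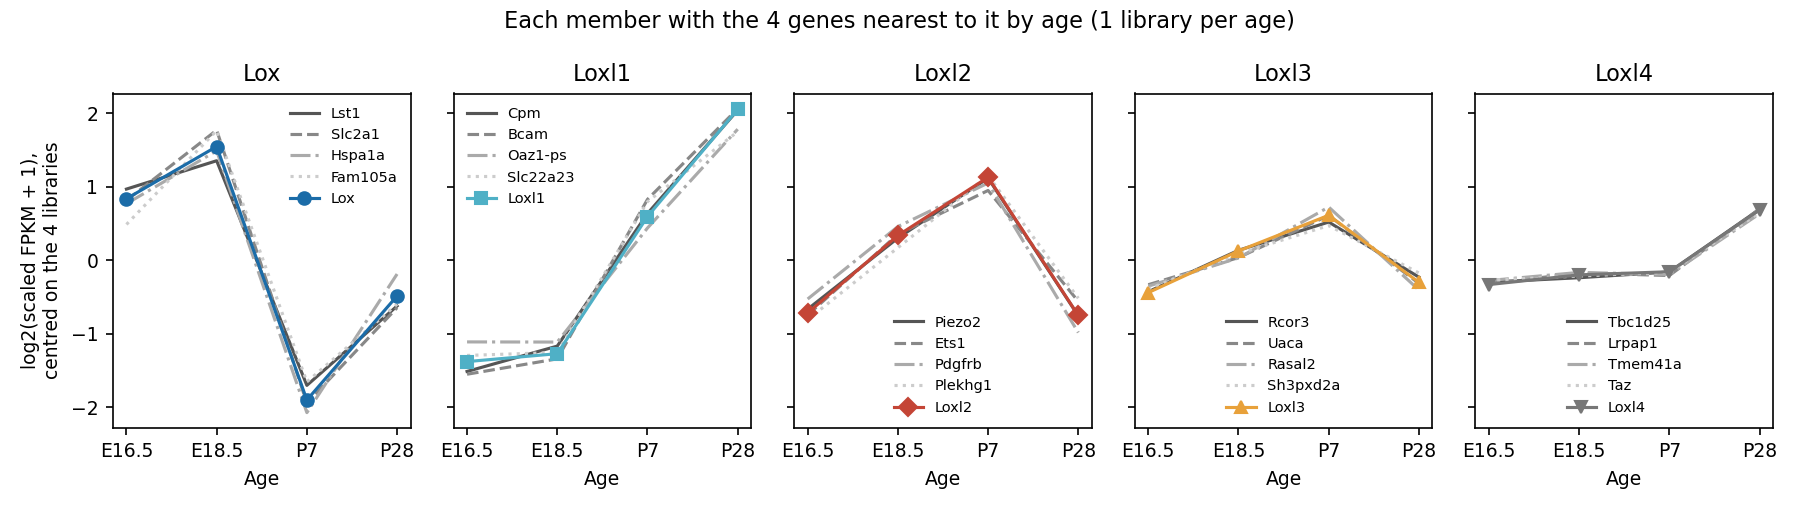
Median-ratio scaled log2(FPKM + 1), centred on the mean of the 4 libraries (vertical axis), for each member in colour and the 4 genes nearest to it in grey, by age. The Lox panel has its low point at P7 and the Loxl2 panel its high point there, and Loxl4 and its neighbours move little on this scale.

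Summed endothelial and smooth muscle markers were highest at P7 under both scales, as Loxl2 and Loxl3 were. Summed pericyte markers were highest there as deposited only. All 10 endothelial markers were called higher at P7 against E18.5 and against E16.5 and all 10 lower at P28 against P7, under both scales. The endothelial cadherin Cdh5 was at 4.999 FPKM on E16.5, 5.79 on E18.5, 276 on P7 and 67.3 on P28, and Ramp2 at 11.4, 7.77, 149 and 40.4. At P28 the summed endothelial markers were at 229.6 FPKM, against 28.1 and 32.7 in the fetal libraries. Loxl2 at P28 was at 19.6 FPKM, against 21.3 and 23.1 in the fetal libraries. Summed pericyte markers, 8 genes, were at 27.5, 35.5, 71.0 and 24.9 FPKM, among them Pdgfrb at 7.83, 8.42, 30.8 and 5.07 and Kcnj8 at 1.503, 11.1, 8.86 and 9.13. After scaling the pericyte sums were 23.9, 61.1, 51.5 and 23.1, which puts E18.5 above P7. The markers differed here, with scaled Pdgfrb at 14.5 on E18.5 and 22.4 on P7 and scaled Kcnj8 at 19.2 and 6.43. Of the 8, 1 was called higher and 3 lower at P7 against E18.5 after scaling, beside 7.2% and 5.88% of all expressed genes. Summed smooth muscle markers, 6 genes, were at 314, 139, 511 and 30.8, among them Acta2 at 168, 39.5, 216 and 9.95 and Actg2 at 49.5, 12.3, 99.1 and 0.931. The part of these cells in the Loxl2 and Loxl3 values was not tested.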

How the data were processed

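RNA-seq libraries of Pdgfra-positive lung fibroblasts, 1 per age, were used. Per the labels' protocols, cDNA was made with the Verso kit and paired-end libraries with Nextera XT. Per the submitters' processing notes, TopHat2 2.0.9 and GRCm38 (mm10) were used; the program behind the expression values is not named there. The authors deposited FPKM in 4 columns, 1 per age, for 23931 entries. Entries that share a symbol (258 symbols) were summed. Positive values go down to 1.21e-256, which points to model fits, where a 0 may stand for a fit that failed. FPKM holds no read totals, so no counting interval is given.

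Differences of log2(FPKM + 1) were described without tests. Median-ratio factors came from 7930 symbols at 1 FPKM or more in all libraries. The 6 partner lists and 9 marker lists hold 120 entries, 119 of them in the table. Of each partner list the most abundant gene (by its highest library) and up to 3 with the widest range were named. The 2 most abundant were named for the fibroblast, endothelial, smooth muscle, pericyte and immediate early lists. Of the epithelial and leukocyte lists only Scgb1a1 and Lyz2 were named, and the mesothelial and erythroid lists are given as sums. Predicted genes and small RNAs were passed over among similar genes. The members and lists were chosen with earlier results of these data known. Eln, Col1a1, Col4a1, Pdgfra, Htra2, Bmp1 and Atp7a are given as references outside this naming rule. Gene models came from GENCODE M21, and identities from global alignment in Biopython 1.88. Alternatives were pseudocounts of 0.1 and 5, no minimum or one of 20 FPKM, a 4-fold threshold, and median-ratio, upper-quartile and equal-sum scaling. The code was tested on simulated data. Python 3.11.15, numpy 2.4.6, pandas 2.3.3 and matplotlib 3.10.9 were used.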

Additional observations from a re-analysis of the deposited data

How the results depend on the processing

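No paired analysis was possible because each age has 1 library, and for the same reason no replicate could be left out. Counts of members called changed as follows. The share of all expressed genes called was computed only for the main setting as deposited and with median-ratio scaling. Counts at the other settings thus have no such share beside them. With median-ratio or upper-quartile scaling, E18.5 against E16.5 had 1 member higher in place of 0, P7 against E18.5 had 1 higher in place of 3, and P28 against P7 had 1 lower in place of 2. With a minimum of 20 FPKM, P7 had 1 member higher against E18.5 and 1 against E16.5, and P28 had 1 lower against P7. With a 4-fold threshold, P28 against P7 had 0 higher and 1 lower, and P28 against E16.5 had 0 lower. With a pseudocount of 5, P28 against P7 had 0 higher and 1 lower. With equal sums, P28 against P7 had 0 higher, and with no minimum, P28 against E16.5 had 2 higher. At P7 the members higher fell from 3 to 2 with a pseudocount of 5 or a 4-fold threshold, against both E18.5 and E16.5, with equal sums (marker genes left in or out) against E18.5, and with upper-quartile scaling against E16.5. The cause was not tested. No call of a single member changed its sign under the alternatives run. Of 25 differences (5 members in 5 comparisons), 20 kept 1 sign under all 4 scales, and the other 5 were called under none of them. Equal sums without marker genes of other cell types were chosen after seeing the data. Depth limits what can be said of Loxl4 most, at 0.276 to 1.86 FPKM.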

Other observations

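Other amine oxidases, which are not of the lysyl oxidase family, were low beside it. Of 7 genes, 5 reached 1 FPKM in some library. Monoamine oxidase B (Maob) was at 1.32 FPKM on E16.5, 1.21 on E18.5, 1.87 on P7 and 13.5 on P28, highest at P28 as Loxl1 was. Monoamine oxidase A (Maoa) was at 3.83, 2.84, 13.3 and 4.64, and the copper amine oxidase Aoc3 at 0.389, 0.581, 5.89 and 2.33, both highest at P7 as Loxl2 was. At P7 against E16.5, 2 of the 5 were called higher and 0 lower as deposited, or 1 and 0 after scaling, beside 8.84% and 3.75% of all expressed genes as deposited and 6.02% and 4.72% after scaling. The median log2 difference of the 5 was 0.35 (0.14 after scaling) beside 0.16 (-0.03) for all. Their summed FPKM over 7 genes was 10.6, 7.19, 27.3 and 25.5 in order of age.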
